A study of Mus musculus with 6 samples.

Results

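Calcium enters a cell, and moves between its compartments, through channel proteins, some of them governed by calcium sensors, and the mRNAs of 10 such channels and sensors are described here in RAW264.7 cells, an established mouse line with macrophage properties. The genes were listed by name as candidate sensors of ultrasound and as calcium entry genes, and all 10 were found among the 54429 gene symbols of the deposited table. They are Piezo1, Trpv2, Trpv4, Trpm4, Trpm7, Tmem63a, Tmem63b, Orai1, Stim1 and Mcu. C/D cells were kept for 3 d with a composite gel of GelMA (gelatin carrying methacryloyl groups) with PLLA/PDA and PEDOT:PSS, a polymer mixture that conducts current, and were given low-frequency ultrasound of 48 kHz for 5 min. Gel/S cells, the control, were kept for 3 d with GelMA alone in static culture. Each group has 3 libraries of the same cell line, and the labels name no other difference in genotype or agent. Material and ultrasound change together, so their effects cannot be told apart. Whether the 3 libraries of a group came from 3 cultures is not in the labels, so p-values measure only the spread between these libraries, which may be technical. The deposited columns name the C/D libraries only by the letters US, read here as ultrasound, and every direction below rests on that reading.

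Mechanically gated channels open when the membrane is stretched or bent, and many of them let cations, calcium among them, into the cell. Store-operated entry works differently: when calcium in the endoplasmic reticulum runs low, STIM1 in its membrane senses the loss and opens ORAI1 in the plasma membrane. Part of the calcium that enters is taken up by mitochondria through the uniporter, whose pore is MCU. In macrophages, calcium signals are tied to phagocytosis, migration and the release of cytokines.

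No mRNA of these channels passed the test between C/D and Gel/S. Of the 10 genes, 9 had a mean of at least 1 FPKM (fragments per kilobase of gene length, scaled to library size) over the 6 libraries and were tested. With the edgeR quasi-likelihood test and Benjamini-Hochberg adjustment over all 11708 genes tested, 0 of the 9 were higher and 0 were lower in C/D (threshold 0.05 on the adjusted p), and 1 (Piezo1) had an unadjusted p under 0.05. Over all genes tested, 27.0% were called, 13.1% as higher and 13.9% as lower, and 41.0% had an unadjusted p under 0.05. That is 1532 genes higher and 1631 lower, a split that was 633 higher and 1510 lower with limma on TPM (FPKM rescaled to the same total in each library), where the median gene shifted to −0.12 on the log2 scale. DESeq2, the other count test, called 1 of the 9 (Piezo1, lower), against 27.3% of all genes. The median log2 fold change, C/D over Gel/S, was 0.02 for the 9 channels and 0.0072 for all genes tested. The largest differences were those of Piezo1, at 0.743-fold the Gel/S level in C/D, and Stim1, at 0.761-fold, and both were nearer to 1-fold without 1 library, Gel/S 1. In bulk RNA, a change in the share of cells and a change of the RNA in each cell cannot be told apart.

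Total counts were 12818831 to 15802627 in the C/D libraries and 15579679 to 16525699 in the Gel/S libraries. All 6 macrophage markers looked up (Adgre1, Csf1r, Cd68, Ptprc, Lyz2 and Itgam) were above 1 FPKM, with a summed level of 9624 to 9717 FPKM in C/D and 11594 to 12496 FPKM in Gel/S. Most of that sum was Lyz2 (mean 8024 FPKM in C/D and 10197 FPKM in Gel/S). Only Csf1r was called (log2 fold change −0.48, edgeR adjusted p = 0.00736). Adgre1, Ptprc and Lyz2 had log2 fold changes below 0, and Cd68 (0.02) and Itgam (0.18) above 0, none of them called. Of 5 osteoclast markers, 2 (Acp5 and Ocstamp) reached 1 FPKM and Calcr had no count, with a sum of 22.7 to 27.7 FPKM in C/D and 16.7 to 19.7 FPKM in Gel/S. Most of that sum was Acp5, which was called higher (mean 20.8 FPKM in C/D and 14.8 FPKM in Gel/S, edgeR adjusted p = 0.00818). Ocstamp was not called (2.86 FPKM in C/D and 3.05 FPKM in Gel/S). Ctsk (0.404 against 0.180 FPKM) and Oscar (0.360 against 0.0907 FPKM) were higher in C/D but below the filter. The part of these marker differences in the channel results was not tested. No marker of fibroblasts, lymphocytes, neutrophils, epithelium or endothelium had a mean of 1 FPKM over the 6 libraries, and the highest single value was 1.07 FPKM (12 counts) for the neutrophil marker S100a8 in Gel/S 2. Gel/S 1 deviated most from its group, with Gel/S 2 next. Its log2 CPM (counts scaled to library size) differed from the mean of the other two of its group by a median of 0.201 over all genes tested, against 0.0911 to 0.177 for the other libraries. Gel/S 1 held the highest FPKM of its group for 8 of the 10 channel genes, all but Orai1 and Mcu. Such an order was not particular to Gel/S 1, since C/D 1 was the highest of its group for 7 and C/D 3 the lowest for 7.

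The 10 mRNAs spanned a wide range of levels, here compared in FPKM, which is per gene length. Trpv2 was the most abundant by 3.04-fold over the next, with a mean of 33.1 FPKM over the 6 libraries. Orai1 (10.9 FPKM) and Tmem63a (9.47 FPKM) followed, and their ranges overlapped, with Orai1 above Tmem63a in 5 of 6 libraries. Trpm7 (6.71 FPKM), Tmem63b (5.44 FPKM) and Piezo1 (5.19 FPKM) came next. Trpm7 and Tmem63b overlapped in range although Trpm7 was higher in each of the 6 libraries, and Tmem63b was above Piezo1 in 4 of 6. Stim1 (2.29 FPKM) and Mcu (2.04 FPKM) did not differ beyond their spread, each being the higher one in 3 libraries. Trpm4 (1.22 FPKM) and Trpv4 (0.678 FPKM) were at the low end, and their ranges did not meet each other or that of Mcu. By rank of the mean, Trpv2 was above 86.2% of the genes tested, Orai1 above 62.5%, Mcu above 13.8% and Trpm4 above 3.56%. Trpv2 made up 44.2 to 45.6% of the summed FPKM of the 10 genes in C/D and 39.2 to 43.8% in Gel/S. This share also depends on the sum, which was 72.3 to 78.3 FPKM in C/D and 74.8 to 86.1 FPKM in Gel/S. The share was not tested, and Trpv2 itself overlapped between the groups (edgeR adjusted p = 0.362).

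**Figure D1:**
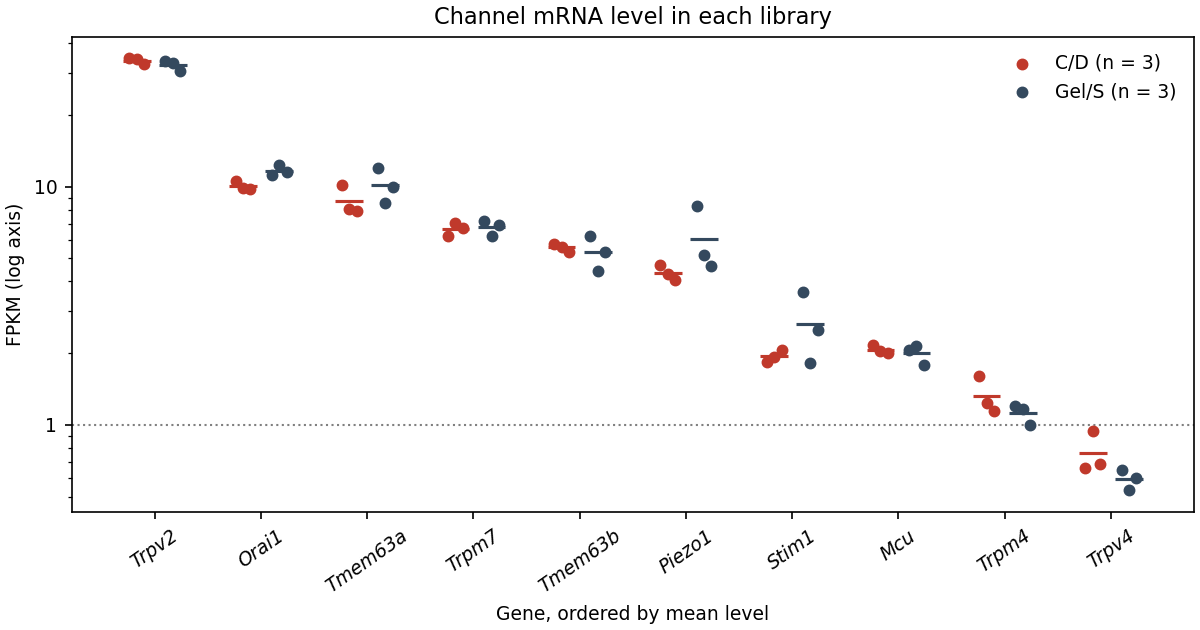
FPKM of each channel gene on a log axis, with 1 point per library, C/D left of Gel/S, a bar at each group mean and a dotted line at 1 FPKM. Trpv2 lies far above the rest at 30.5 to 34.6 FPKM, the groups of most genes overlap, and single high Gel/S points stand out for Piezo1 (8.27 FPKM) and Stim1 (3.61 FPKM).

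PIEZO1 is a large trimeric channel that opens on membrane tension and passes calcium and other cations. Its gene lies on the reverse strand of chromosome 8, 122481698 to 122551329 (GRCm38). Piezo1 had 4.67, 4.29 and 4.07 FPKM in C/D 1 to 3, against 8.27, 5.18 and 4.63 FPKM in Gel/S 1 to 3. The groups overlap narrowly, since C/D 1 lies just above Gel/S 3, and Gel/S 1 is far above all others. The means were 4.34 ± 0.307 FPKM in C/D and 6.03 ± 1.96 FPKM in Gel/S (SD, n = 3 each). The log2 fold change was −0.43 (SE 0.17, 95% interval −0.80 to −0.05), with an edgeR adjusted p of 0.0827. Without Gel/S 1 it was −0.14 with an adjusted p of 0.275. It passed the threshold without Gel/S 2 (−0.52, adjusted p = 0.0256) or without Gel/S 3 (−0.59, adjusted p = 0.0373), and both comparisons keep Gel/S 1. Over all genes, 1989 were higher and 2089 lower without Gel/S 2, and 887 and 1005 without Gel/S 3. With all libraries, 1532 were higher and 1631 lower. DESeq2 gave an adjusted p of 0.0455 and edgeR with no filter on low values 0.00024, and the authors' deposited table lists 0.0309 with a log2 fold change of 0.47 for Gel/S over C/D. In Gel/S 1 the Piezo1 log2 CPM exceeded the mean of the other two Gel/S libraries by 0.72, more than for 98.8% of the genes tested. Piezo2, its only relative, had no count in any library, which allows up to 3 counts per library.

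Exons of Piezo1 share 2441 bases with Ctu2, a tRNA-modifying enzyme gene on the opposite strand. Whether the counting used strand was not stated, so reads of the shared bases cannot be told apart. Ctu2 had 4.82, 4.23 and 4.43 FPKM in C/D, against 4.62, 5.76 and 4.37 FPKM in Gel/S, with its highest value in Gel/S 2. The part of shared reads in the Piezo1 and Ctu2 values was not tested. The Piezo1 promoter, 300 bases that end 50 bases past the start (RefSeq, GRCm38.p6, chr8:122551280-122551579, reverse strand), is shown because this gene had the largest difference among those tested. It is rich in G and C (75%) and in CpG pairs, with 34 against a median of 7 over all 32851 promoters of the same length. Capitals mark the TATA box letters TATAAA, 24 bases before the start, and the GC box letters GGGCGG, 40 bases before it.
Piezo1: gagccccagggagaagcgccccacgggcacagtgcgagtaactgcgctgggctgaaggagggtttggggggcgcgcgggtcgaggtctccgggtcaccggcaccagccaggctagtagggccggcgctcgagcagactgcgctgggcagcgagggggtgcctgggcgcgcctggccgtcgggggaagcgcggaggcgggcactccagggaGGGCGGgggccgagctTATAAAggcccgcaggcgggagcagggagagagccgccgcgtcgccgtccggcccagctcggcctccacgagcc
Both motifs were searched on both strands, as were the CCAAT box (CCAAT), the E-box (CACGTG) and the element of the macrophage factor PU.1 (GAGGAAGT). The motifs were chosen with the sequences in view, and no matches overlapped each other. The letters of the TATA box occur in 13.6% of all promoters, and Piezo1 was the only one of the 9 channel promoters on file that held them. Those of the GC box occur in 35.7% of all promoters and in 6 of the 9. A match is a run of letters, not a shown binding site.

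TMEM63A and TMEM63B are mammalian relatives of the OSCA channels that plants open on osmotic and mechanical stress. Tmem63a (chromosome 1, 180942344 to 180975112, forward strand) had 10.2, 8.04 and 7.93 FPKM in C/D, against 12, 8.58 and 10 FPKM in Gel/S. C/D 1 lies within the Gel/S range and the other C/D libraries lie below it. The log2 fold change was −0.18 (95% interval −0.47 to 0.11, edgeR adjusted p = 0.325). Tmem63b (chromosome 17, 45660171 to 45686905, reverse strand) had 5.76, 5.59 and 5.32 FPKM in C/D, against 6.20, 4.44 and 5.33 FPKM in Gel/S, where the Gel/S values spread on both sides of the C/D values. Its log2 fold change was 0.11 (95% interval −0.16 to 0.37, edgeR adjusted p = 0.536). Tmem63b shares 106 exon bases with Mrpl14 and 288 with Gm16172, both on the opposite strand. Mrpl14, a mitochondrial ribosomal protein gene, had 83.4, 75.3 and 80.4 FPKM in C/D, against 52, 64.1 and 69 FPKM in Gel/S. It was higher in every C/D library than in any Gel/S library, which held, in this direction, for 19.1% of all genes tested. The third relative, Tmem63c, had 11 counts in the 6 libraries together.

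Set against each other within a library, the 2 paralogs gave ratios that did not overlap between the groups. Single genes failed to overlap in 46.2% of all genes tested, and the share for ratios of gene pairs was not computed. The log2 ratio of Tmem63a over Tmem63b was 0.83, 0.53 and 0.58 in C/D, against 0.95, 0.95 and 0.92 in Gel/S. All C/D ratios lie below all Gel/S ratios, and the Gel/S ratios are nearly equal, although Gel/S 1 was the highest Gel/S library for both genes. Tmem63a thus stood at 1.56-fold the Tmem63b level in C/D and at 1.92-fold in Gel/S (geometric means). Mrpl14, which shares bases with Tmem63b, was higher in C/D, and the part of its reads in the Tmem63b values and in this ratio was not tested. The difference was −0.30 (exact permutation test, two-sided p = 0.1, the smallest value this design can reach, and 0.2 after Benjamini-Hochberg adjustment over the 4 ratios computed).

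Among the TRP channels, TRPV2 is a calcium-permeable channel known in macrophages for its part in phagocytosis and for opening on stretch. Trpv2 (chromosome 11, 62574486 to 62600515, forward strand) had 34.6, 34.3 and 32.6 FPKM in C/D, against 33.7, 33.1 and 30.5 FPKM in Gel/S. The groups overlap, and the coefficient of variation over all 6 libraries was 4.48%, the smallest of the 10. The log2 fold change was 0.10 (SE 0.08, edgeR adjusted p = 0.362), and its 95% interval reached from 0.949-fold to 1.22-fold. The promoter at the start that the file gives, 1 of 3 listed by RefSeq (RefSeq, GRCm38.p6, chr11:62574236-62574535, forward strand) is shown because Trpv2 is the most abundant of the set and its promoter is poor in CpG pairs. It holds 2 CpG pairs, where the other 8 channel promoters on file hold 21 to 38. Capitals mark the PU.1 element letters, whose first base lies 14 bases before the start.
Trpv2: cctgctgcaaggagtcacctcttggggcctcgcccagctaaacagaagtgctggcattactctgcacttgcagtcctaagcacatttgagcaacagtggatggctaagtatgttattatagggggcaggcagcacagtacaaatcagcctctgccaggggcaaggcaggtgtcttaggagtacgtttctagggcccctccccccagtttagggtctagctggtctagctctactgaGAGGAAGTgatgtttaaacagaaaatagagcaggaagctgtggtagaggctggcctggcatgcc
These letters occur in 3.20% of all promoters and in 1 of the 9 channel promoters. PU.1 is a transcription factor of the macrophage lineage, and its binding was not measured here.

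TRPV4 opens on cell swelling, warmth and lipid messengers and is known in macrophages as a sensor of matrix stiffness. Trpv4 (chromosome 5, 114622152 to 114658421, reverse strand) was the one gene below the filter, with 35, 62 and 42 counts in C/D, against 42, 35 and 38 counts in Gel/S. In FPKM it stood at 0.660, 0.946 and 0.685 in C/D, against 0.645, 0.532 and 0.600 in Gel/S, so the groups do not overlap, with C/D the higher one, but C/D 1 and Gel/S 1 lie next to each other. Over all genes tested, the groups failed to overlap in 46.2%, with C/D higher in 19.1%. In the edgeR fit with no filter, the log2 fold change was 0.37 (95% interval −0.14 to 0.88, adjusted p = 0.401). In that fit the 95% interval reached from 0.905-fold to 1.84-fold. Its width cannot be set directly beside the intervals of the tested genes, which come from another edgeR fit. Piezo1, for example, had an adjusted p of 0.00024 with no filter and of 0.0827 among the tested genes.

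TRPM4 is opened by calcium but passes sodium and potassium, and so limits further calcium entry by depolarizing the cell. Trpm4 (chromosome 7, 45302632 to 45333780, reverse strand) had 1.61, 1.23 and 1.14 FPKM in C/D, against 1.20, 1.16 and 0.999 FPKM in Gel/S. C/D 1 was above all others and the remaining values overlapped. The log2 fold change was 0.28 (SE 0.15, edgeR adjusted p = 0.180), and 0.13 without C/D 1 (adjusted p = 0.562). TRPM7 joins a channel for magnesium, zinc and calcium to a kinase in 1 protein. Trpm7 (chromosome 2, 126791565 to 126876230, reverse strand) had 6.19, 7.05 and 6.72 FPKM in C/D, against 7.16, 6.23 and 6.93 FPKM in Gel/S. The groups lie over each other, with a log2 fold change of 0.02 (edgeR adjusted p = 0.902) and a 95% interval of 0.887-fold to 1.15-fold. The log2 ratio of Trpm7 over Trpm4 was 1.95, 2.51 and 2.56 in C/D, against 2.58, 2.43 and 2.80 in Gel/S, and the groups overlap (difference −0.26, two-sided exact permutation p = 0.4, or 0.533 adjusted over the 4 ratios).

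ORAI1 is the pore of the store-operated channel. Orai1 (chromosome 5, 123015074 to 123030456, forward strand) had 10.6, 9.86 and 9.76 FPKM in C/D, against 11.2, 12.3 and 11.5 FPKM in Gel/S. All C/D values lie below all Gel/S values, which held, in this direction, for 27.1% of all genes tested, and Orai1 was the only one of the 9 tested channels whose groups did not overlap. The means were 10.1 ± 0.450 FPKM in C/D and 11.7 ± 0.586 FPKM in Gel/S (SD, n = 3 each). The log2 fold change was −0.17 (SE 0.10, 95% interval −0.40 to 0.05, edgeR adjusted p = 0.221). On TPM values limma gave −0.29 with an adjusted p of 0.0466, a scale on which the median of all genes tested was −0.12.

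STIM1 is the calcium sensor of the endoplasmic reticulum that opens ORAI1. Stim1 (chromosome 7, 102267806 to 102437319, forward strand) had 1.84, 1.93 and 2.06 FPKM in C/D, against 3.61, 1.82 and 2.49 FPKM in Gel/S. Gel/S 2 is below every C/D library and Gel/S 1 is far above. The means were 1.94 ± 0.113 FPKM in C/D and 2.64 ± 0.908 FPKM in Gel/S (SD, n = 3 each), so the Gel/S libraries spread more widely. The log2 fold change was −0.39 (SE 0.19, 95% interval −0.81 to 0.02, edgeR adjusted p = 0.142). It was −0.11 without Gel/S 1 (adjusted p = 0.582) and −0.60 without Gel/S 2 (adjusted p = 0.00554). With no filter on low values the adjusted p was 0.00511, and the authors' deposited table lists 0.0883. Stim1, like Piezo1, exceeded the mean of the other Gel/S libraries in Gel/S 1, by 0.73 in log2 CPM, again more than for 98.8% of the genes tested. The promoter of Stim1 (RefSeq, GRCm38.p6, chr7:102267569-102267868, forward strand) is shown beside that of Piezo1 because both mRNAs were high in Gel/S 1. It has 78.7% G and C, 38 CpG pairs and no TATA box letters, and capitals mark 8 GC boxes, which read CCGCCC where they lie on the other strand.
Stim1: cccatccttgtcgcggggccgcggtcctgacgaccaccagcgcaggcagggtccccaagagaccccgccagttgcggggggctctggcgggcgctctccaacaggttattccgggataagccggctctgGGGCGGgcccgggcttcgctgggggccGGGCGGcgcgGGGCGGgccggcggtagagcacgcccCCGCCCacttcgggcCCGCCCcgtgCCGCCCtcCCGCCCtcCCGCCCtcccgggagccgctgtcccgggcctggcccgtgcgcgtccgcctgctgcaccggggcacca
The log2 ratio of Orai1 over Stim1 was 2.53, 2.35 and 2.24 in C/D, against 1.63, 2.76 and 2.21 in Gel/S. The Gel/S values enclose those of C/D (difference 0.17, two-sided exact permutation p = 0.7, also when adjusted over the 4 ratios, and −0.11 without Gel/S 1).

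**Figure D2:**
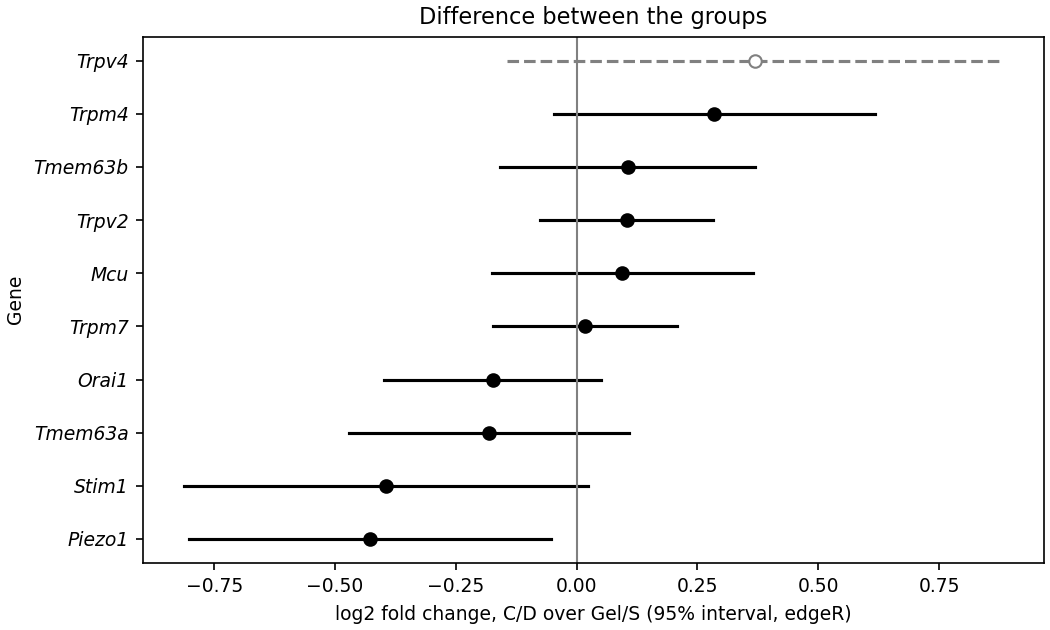
Log2 fold change of each channel gene, C/D over Gel/S, with its 95% interval from edgeR; Trpv4, open and dashed, comes from the fit with no filter on low values. Only the Piezo1 interval (−0.80 to −0.05) leaves out 0, before adjustment over all genes.

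**Figure D3:**
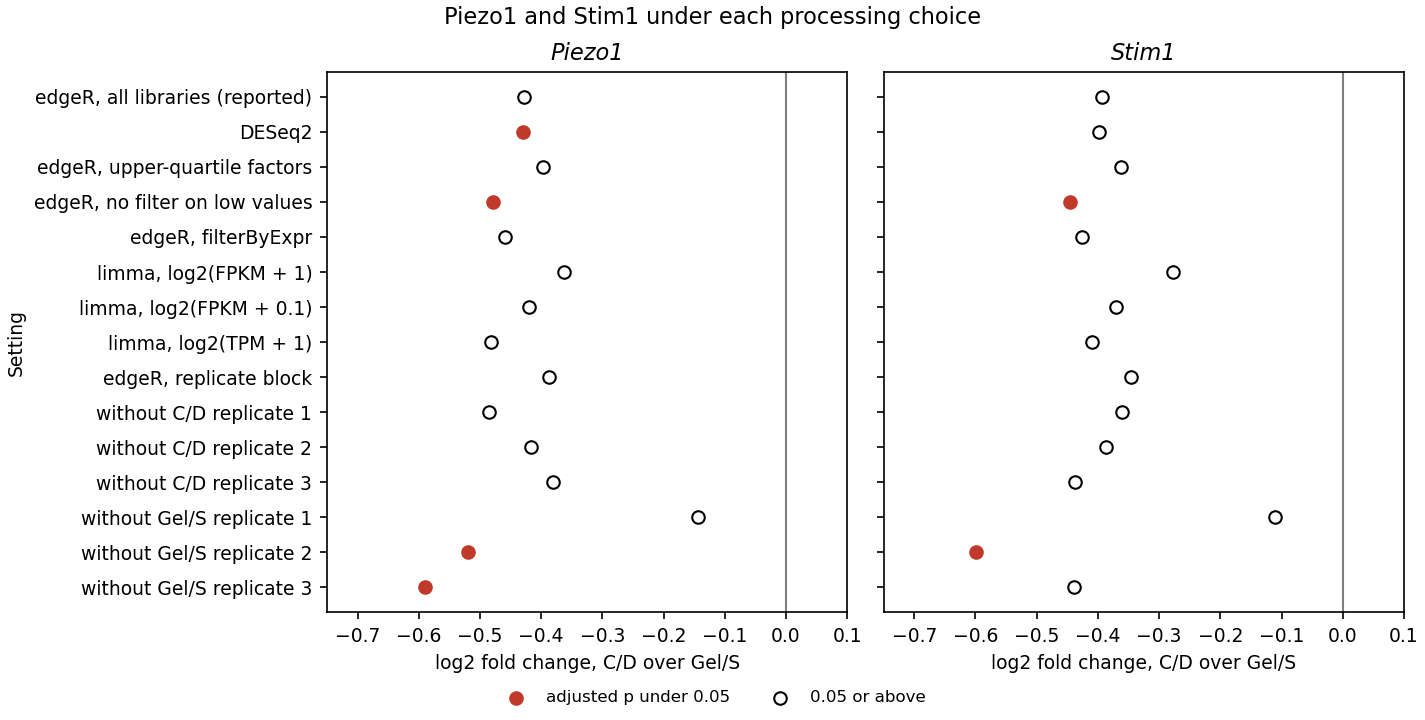
Log2 fold change of Piezo1 and Stim1, C/D over Gel/S, under each processing choice and without each library in turn, filled where the adjusted p was under 0.05. Both move closest to 0 without Gel/S 1 (−0.14 for Piezo1 and −0.11 for Stim1).

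MCU forms the pore of the mitochondrial calcium uniporter. Mcu (chromosome 10, 59446984 to 59616692, reverse strand) had 2.16, 2.05 and 2 FPKM in C/D, against 2.06, 2.15 and 1.78 FPKM in Gel/S. The groups overlap, and the log2 fold change was 0.09 (SE 0.12, edgeR adjusted p = 0.590), with a 95% interval of 0.886-fold to 1.29-fold.

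**Figure D4:**
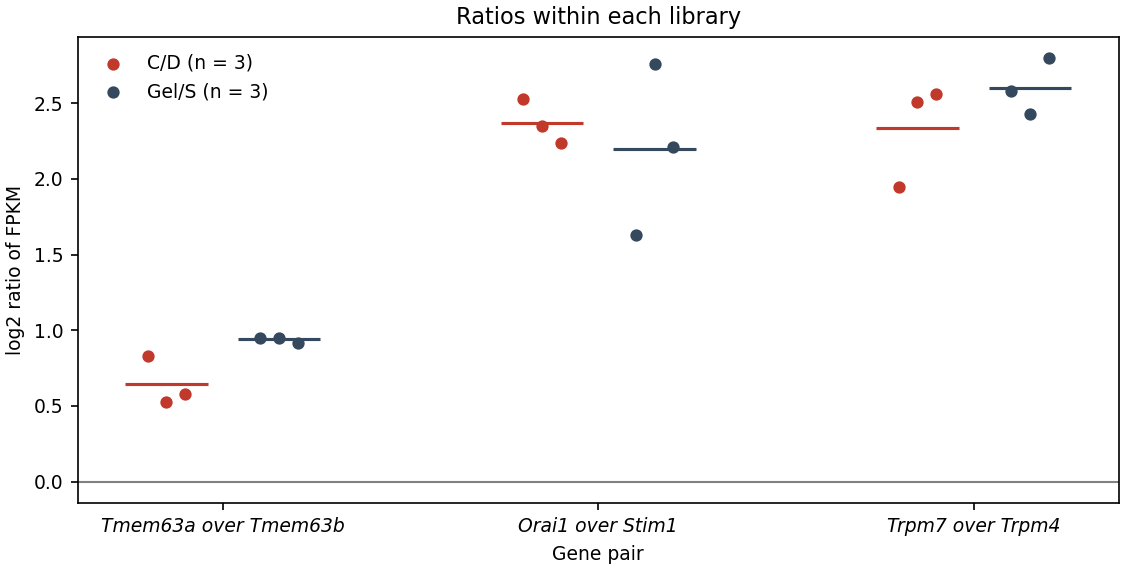
Log2 ratio of FPKM for 3 gene pairs within each library, C/D left of Gel/S, with a bar at each group mean. The groups do not overlap for Tmem63a over Tmem63b (0.53 to 0.83 in C/D, 0.92 to 0.95 in Gel/S) and overlap for the other pairs shown. Single genes failed to overlap between the groups in 46.2% of all genes tested.

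The partner genes of these channels were read in 6 lists. In the list of store-operated entry partners, 1 of 9 tested genes rose, 3 fell and 5 were not called (44.4% called, against 27.0% of all genes), with a median log2 fold change of −0.23. Orai3, a paralog of Orai1, fell, with 19.6, 18.0 and 20.9 FPKM in C/D, against 27.2, 23.5 and 24.7 FPKM in Gel/S (log2 fold change −0.32, edgeR adjusted p = 0.0255). Stim2, the paralog of Stim1 that senses smaller losses of stored calcium, fell too, with 4.31, 4.75 and 3.99 FPKM in C/D, against 7.53, 5.30 and 5.96 FPKM in Gel/S (−0.48, adjusted p = 0.0200). For both, no C/D library reached the lowest Gel/S library, which held, in this direction, for 27.1% of all genes tested. Esyt1, a tether between the endoplasmic reticulum and the plasma membrane, fell by 0.59 on the log2 scale (adjusted p = 0.00142), and Ahnak, a giant scaffold protein, rose by 0.42 (adjusted p = 0.0083). The Orai3 call was lost without C/D 1, C/D 2 or Gel/S 3 (highest adjusted p = 0.124), that of Stim2 without C/D 1 or C/D 3 (0.0837) and that of Ahnak without C/D 2 (0.0508), and 2 partners were called without C/D 1 or without C/D 2. On TPM the Stim2 call was lost too. Orai2 had 8.11, 7.15 and 8.15 FPKM in C/D, against 5.87, 7.55 and 6.36 FPKM in Gel/S, and was not called (adjusted p = 0.0796); it is named after its value was seen, to complete the family. By FPKM, Orai3 made up 51.2 to 53.8% of the 3 Orai mRNAs in C/D and 54.2 to 61.5% in Gel/S, while Orai1 made up 25.2 to 28.2% in C/D and 25.3 to 28.4% in Gel/S. Stim1 made up 28.9 to 34.1% of the 2 Stim mRNAs in C/D and 25.5 to 32.4% in Gel/S.

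Among uniporter partners and mitochondrial calcium efflux genes, 3 of 15 tested genes rose, 4 fell and 8 were not called (46.7% called), with a median log2 fold change of −0.06. Slc8b1, the sodium-calcium exchanger that carries calcium out of mitochondria, rose, with 24.1, 24.2 and 23.1 FPKM in C/D, against 18.0, 19.4 and 20.2 FPKM in Gel/S (log2 fold change 0.35, edgeR adjusted p = 0.0109). This call was lost without C/D 2 (adjusted p = 0.0536) and on TPM. Slc25a25, a calcium-regulated carrier of adenine nucleotides, fell by 0.57 (adjusted p = 0.00336) and stayed called without each library in turn. Micu3, a regulatory subunit of the uniporter, rose by 0.58 (adjusted p = 0.0375), a call lost without any C/D library or Gel/S 1 (highest adjusted p = 0.176). Micu3 was not called by limma. Another 3 calls are named after their values were seen. Smdt1, the essential uniporter subunit EMRE, rose (0.31), while Mcub, a paralog that weakens the pore, fell (−0.32) and so did Vdac1, an outer membrane channel (−0.29). Each of these 3 lost its call when any of 5 of the 6 libraries was left out (highest adjusted p = 0.18, for Mcub), Smdt1 was not called by limma and Mcub was not called by DESeq2. Of the 15 tested partners, 1 was called without C/D 2, 2 without C/D 3 or without Gel/S 1, and 3 without C/D 1 or without Gel/S 3, and limma on TPM called 2.

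Of 13 tested release channels, pumps and exchangers, 1 was called (7.69%), and the median log2 fold change was −0.09. The called gene, Atp2a2, the SERCA pump that refills the endoplasmic reticulum, fell, with 30.2, 28.5 and 31.6 FPKM in C/D, against 54.8, 39.6 and 40.5 FPKM in Gel/S. The groups do not overlap, as held in this direction for 27.1% of all genes tested, and Gel/S 1 is the highest. The log2 fold change was −0.53 (edgeR adjusted p = 0.00721) with all libraries, and Atp2a2 was still called without each library in turn (adjusted p up to 0.0425). DESeq2 called 3 genes of this list, all lower, against 27.3% of all genes. With edgeR 5 were called without Gel/S 1, against 26.2% of all genes. Another fit, without Gel/S 2, called 4, where 1989 of all genes were higher and 2089 lower. In the list of calcium, calmodulin and NFAT signal genes, 2 of 26 rose and 4 fell (23.1% called, median −0.05). Ppp3r1, the regulatory subunit of calcineurin, fell by 0.47 (adjusted p = 0.00451) and Nfat5, a transcription factor of osmotic stress, rose by 0.55 (adjusted p = 0.0018). Both calls held without each library in turn. Nfatc3, a calcineurin-dependent transcription factor, fell by 0.34 (adjusted p = 0.0448), and Calm3 (−0.30) and S100a1 (0.34), named after their values were seen, were also called. Each of these last 3 lost its call when any library but Gel/S 2 was left out (highest adjusted p = 0.173), and none of them was called by limma. Genes of the list called numbered 3 without C/D 2, without C/D 3 or without Gel/S 3. Calls over all genes also fell, to 928 higher and 876 lower, 954 and 1006, and 887 and 1005, in the same order.

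Of 24 further TRP genes, 12 had no count in any library and 4 were tested, with 1 called (25%) and a median log2 fold change of 0.29. Mcoln1, a calcium channel of lysosomes, rose, with 9.5, 10.2 and 9.13 FPKM in C/D, against 8.11, 7.87 and 7.94 FPKM in Gel/S (log2 fold change 0.31, edgeR adjusted p = 0.0167), a call lost without C/D 2 or Gel/S 3 (highest adjusted p = 0.0928), with no filter on low values and on TPM. Of 23 further mechanically gated channels and their partners, 9 were tested and 0 were called by edgeR or by DESeq2, with 2 at an unadjusted p under 0.05 and a median log2 fold change of −0.07. Those were Mdfic, an auxiliary subunit of Piezo channels (log2 fold change −0.32, adjusted p = 0.0878), and Lrrc8a, the core of the volume-regulated anion channel (0.46, adjusted p = 0.0947). Mdfic had 5.91, 7.43 and 6.84 FPKM in C/D, against 10.7, 7.37 and 7.97 FPKM in Gel/S, and like Piezo1 it was highest in Gel/S 1. Without that library its log2 fold change was −0.15 (edgeR adjusted p = 0.265), and without Gel/S 2, Mdfic (−0.42, adjusted p = 0.0168) and Lrrc8a (0.62, adjusted p = 0.0281) were called.

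**Figure D5:**
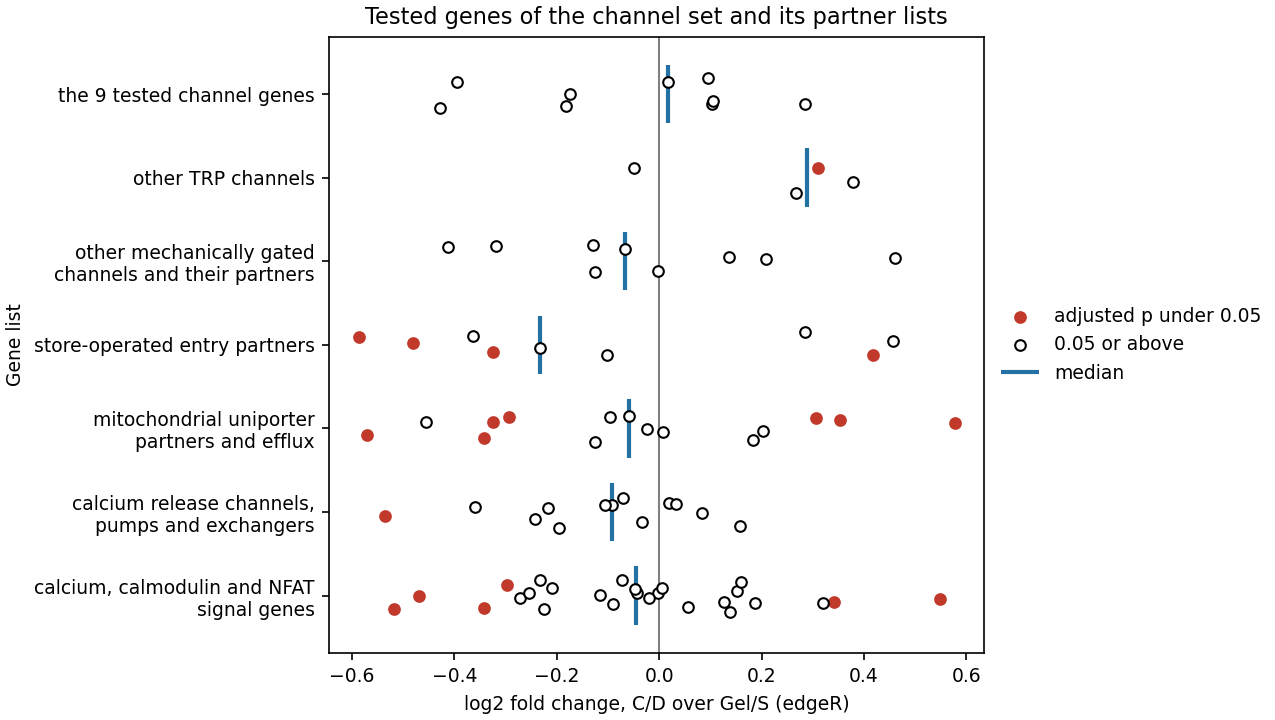
Log2 fold change, C/D over Gel/S, of every tested gene of the channel set and of 6 partner lists, filled where the edgeR adjusted p was under 0.05, with a line at each list's median. Filled are 0 of 9 channels, 4 of 9 store-operated entry partners (2 without C/D 1 or without C/D 2) and 7 of 15 uniporter partners (1 without C/D 2, 2 without C/D 3, without Gel/S 1 or on TPM), against 27.0% of all genes tested.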

How the data were processed

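RNA of RAW264.7 cells was sequenced with a SMARTER mRNA-Seq kit, per the labels' protocols, in 3 C/D and 3 Gel/S libraries, grouped by their titles. Raw counts per gene were deposited by the authors without normalization. The deposited FPKM values, so named in the column headers, were proportional to counts over gene length within each library. The library total they imply was 0.976 to 1.02 times the summed counts. The authors' signal columns are group means of scaled counts, their log2 fold change is Gel/S over C/D, and their p-values come from an unnamed test. Per the submitters' processing notes, the build was GRCm38. Aligner, counter and strand setting: not given in the sources used here. All 10 genes have the same coordinates in GENCODE M21. Columns of unmapped samples numbered 0.

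Symbols turned into dates (27) were restored from gene IDs, and counts of 100 symbols with several entries were summed. Genes with a mean of at least 1 FPKM over the 6 libraries were tested (11708) with edgeR 4.0.16 (quasi-likelihood, TMM) in R 4.3.3; limma 3.58.1 and DESeq2 1.42.0 served as alternatives. Standard errors are log2 fold changes (absolute) divided by the root of edgeR's F. The pipeline was tested on simulated counts. Genes named are the 10 channels and, of each partner list, up to 4 called genes with the smallest adjusted p, or the 2 with the smallest p. Some results that this rule and the ratios gave are not reported here. The channels and lists were chosen with earlier results of these data known. The alternatives were other scalings, filters, pseudocounts and tools, a replicate block, and leaving out each library.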

Additional observations from a re-analysis of the deposited data

How the results depend on the processing

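With another processing, the count of channels higher in C/D was 0 in all 14 alternatives. The count of channels lower was 1 with DESeq2 (Piezo1), against 27.3% of all genes called. It was 2 with no filter on low values (Piezo1 and Stim1), against 16.7% of the 23858 genes of that fit. With limma on TPM it was 1 (Orai1), where 633 of all genes were higher and 1510 lower. Without 1 library it was 0 to 2, with 2 reached without Gel/S 2, where 1989 of all genes were higher and 2089 lower. Signs turned only at values of small size. On TPM, where the median of all genes tested was −0.116, they turned for Trpv2 (−0.0293), Tmem63b (−0.0168), Mcu (−0.0288) and Trpm7 (−0.111). For Trpm7 the sign also turned with no filter (−0.0304), with filterByExpr (−0.0124), and with limma on log2(FPKM + 1) (−0.0229) and log2(FPKM + 0.1) (−0.0259). Without 1 library, Trpm7 ranged over −0.0338 to 0.0623, Tmem63b over −0.004 to 0.22, and the log2 ratio of Orai1 over Stim1 differed by −0.11 to 0.45. Called partners numbered as follows. Other TRP channels gave 0 with no filter and 0 on TPM (0 to 2 without 1 library). Other mechanically gated channels gave 2 with no filter (0 to 2 without 1 library), and store-operated partners 2 to 6 without 1 library. Uniporter partners gave 4 with limma on either FPKM scale, 2 on TPM, and 1 to 7 without 1 library. Pumps and release channels gave 3 with DESeq2, with no filter, with filterByExpr and with each limma fit (1 to 5 without 1 library), and calcium signal genes 3 to 9 without 1 library. With the replicate number as a replicate block, uniporter partners gave 4 and all genes 1242 higher and 1302 lower, against 1532 and 1631 without it, but same-numbered libraries did not deviate together (correlations of −0.0568, −0.0589 and 0.0454) and no library correlated best with its own number, so libraries were not treated as pairs. Without 1 library, 887 to 1989 of all genes were higher and 876 to 2089 lower. Limma gave 1020 of all genes higher and 1471 lower on log2(FPKM + 1), and 1008 and 1492 on log2(FPKM + 0.1). With filterByExpr, 1568 of 13308 genes were higher and 1904 lower. Depth limits Trpv4 (35 to 62 counts per library), Trpm4 (168 to 226) and Mcu (192 to 241).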
